A study of Rattus norvegicus with 24 samples.

Results

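The genes described here build, crosslink and cut the extracellular matrix of skeletal muscle. The theme was chosen with earlier results of these data known, and membership was then set by gene symbol alone. The set holds every gene of the deposited table whose symbol is that of a collagen chain, a laminin chain or a matrix metalloproteinase (MMP). It also takes in each tissue inhibitor of metalloproteinases (TIMP), member of the ADAMTS family and lysyl oxidase. Fn1, Sparc, Postn, Fbn1, Dcn, Lum and Bgn were added by name. This gave 68 genes of the 10851 in the table, and all 68 passed the filter on low counts. Mmp9 and Lox, which also belong to these families, were not analysed here.

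RNA from the left medial gastrocnemius, a hindlimb muscle rich in fast fibres, was sequenced in 24 male Wistar rats to ask how cardiac cachexia (CC) alters the muscle and whether aerobic training modifies this. The 4 groups held 6 rats each. Sed rats received saline and stayed sedentary, Ex rats received saline and ran on a treadmill, CC-Sed rats received monocrotaline and stayed sedentary, and CC-Ex rats received monocrotaline and ran on a treadmill. Monocrotaline is a plant alkaloid that injures the lung vessels and overloads the right ventricle, so the muscle changes follow an injected toxin and not a genetic lesion, and a direct action of the toxin on muscle cannot be told apart from that of heart failure. According to the authors, monocrotaline rats without right ventricular remodelling were left out, so the CC groups hold only rats that responded and survived.

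The matrix around muscle fibres has layers. Fibrillar collagens, chiefly types I and III, are secreted by fibroblasts as procollagens, trimmed and then crosslinked by lysyl oxidases into the fibres of the endomysium and perimysium. Each fibre also sits on a basement membrane of laminin and collagen IV, tied to the fibrillar layer by collagen VI and by the multiplexin collagens XV and XVIII. MMPs and ADAMTS proteases cut these proteins, and TIMPs hold the proteases in check.

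Each rat was 1 library, with total counts between 37816239 and 50350554. The 68 genes held a small share of each library, with medians of 0.387% (Sed), 0.430% (Ex), 0.255% (CC-Sed) and 0.201% (CC-Ex). Levels are CPM, counts scaled to the size of each library after TMM normalisation, given as the lowest, the median and the highest of the 6 rats of a group. Fold changes (Log2FC) are the monocrotaline group minus the saline group of the same training state, or trained minus sedentary, and a gene is said to have risen or fallen where its edgeR quasi-likelihood p-value, adjusted over all 10851 genes by Benjamini-Hochberg, was under 0.05. The effect of CC was tested in sedentary rats (Sed vs. CC-Sed), in exercised rats (Ex vs. CC-Ex) and as the average of these 2 effects. The labelled tissue was checked on markers of fast muscle fibres, 6 of which were measured and summed to between 101300 and 240500 CPM in every library. In bulk muscle, fewer cells of a type and less RNA per cell cannot be told apart.

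Averaged over both training states, the main fibrillar collagens, collagen VI and several proteins that organise them were lower in CC rats, while the laminins and collagen IV mostly did not pass the test. Of the 68 genes, 21 passed the test, 17 of them lower and 4 higher in CC rats. Over all genes tested, 27.8% passed, so the total of 30.9% among the matrix genes was near the background. By direction, 25% of the matrix genes fell, against 10.6% of all genes, and 5.88% rose, against 17.2% of all genes. DEGs, which also had a Log2FC of at least 1 in size, were 12 of the matrix genes (17.6%), against 2.88% of all genes. The median Log2FC of the 68 genes was -0.31, with 57 of them (83.8%) below 0, while the median of all genes was 0.01 and 48.1% of all genes were below 0. The genes that fell were Col1a1, Col1a2, Col3a1, Col5a1, Col6a1, Col6a2, Col6a6, Col15a1, Col18a1, Lama3, Postn, Sparc, Bgn, Loxl1, Mmp23, Adamts12 and Timp2, and those that rose were Adamts9, Adamts1, Mmp11 and Timp3.

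**Figure D1:**
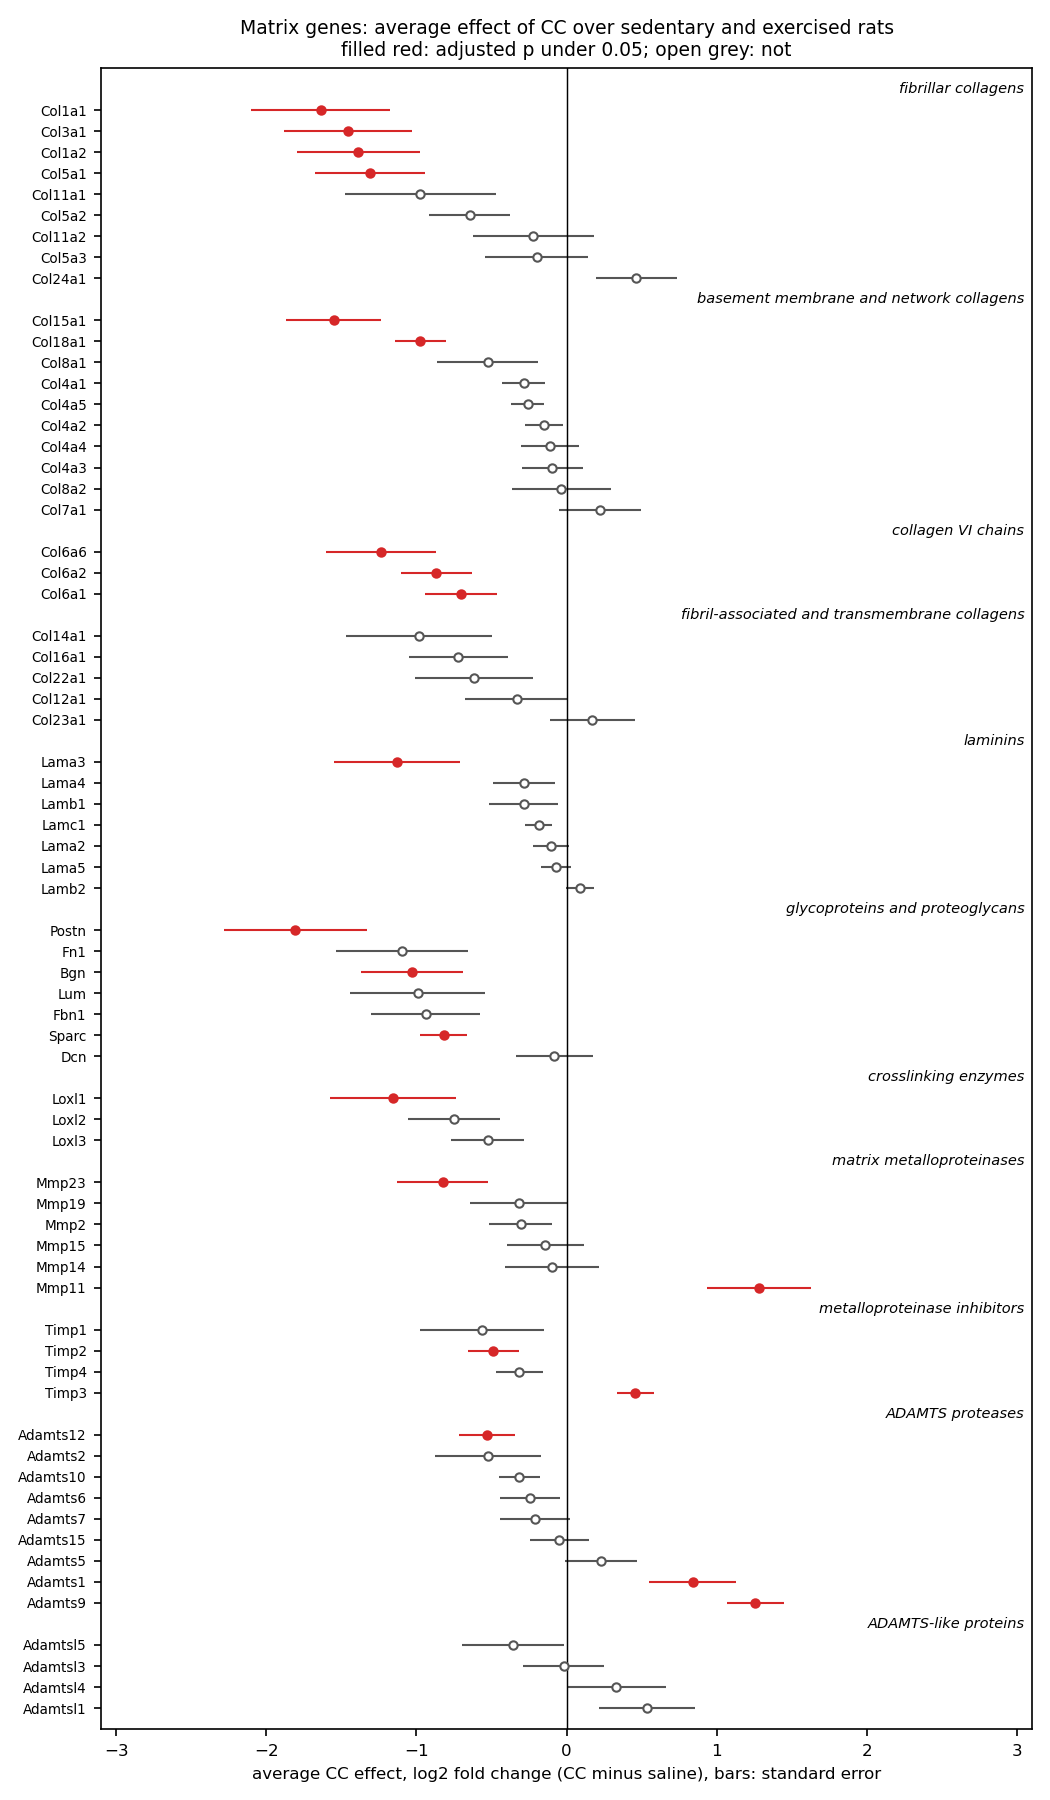
Average Log2FC of CC over sedentary and exercised rats (x axis, log2 scale) for 67 of the 68 matrix genes, ordered by role and then by value, with bars for the standard error, filled red where the edgeR adjusted p was under 0.05 and open grey where it was not. The red points on the left are the 17 genes that fell, led by Postn at -1.81 and Col1a1 at -1.64, and those on the right are the 4 that rose, Mmp11, Adamts9, Adamts1 and Timp3.

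Regulatory sequence is shown for 3 genes that fell and 2 that rose, since these calls are the base of the results that follow. Promoters, the 250 bases before the annotated start, were taken from RefSeq on assembly GRCr8, and 51 of the 68 genes matched. The counts were made on another assembly, mRatBN7.2, so these coordinates serve the sequence only. Each is written 5′ to 3′ on the gene's strand, and capitals mark 3 words of core promoters found on either strand. These are TATAAA (the TATA box), the CCAAT box, and the GC box with the letters GGGCGG.

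Postn, chr2:140677811-140678060, strand +: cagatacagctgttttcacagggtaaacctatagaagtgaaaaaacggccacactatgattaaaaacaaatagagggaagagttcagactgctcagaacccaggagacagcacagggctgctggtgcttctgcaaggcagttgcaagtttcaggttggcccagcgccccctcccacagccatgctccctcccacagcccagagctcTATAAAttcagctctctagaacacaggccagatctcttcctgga

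Sparc, chr10:40038817-40039066, strand -: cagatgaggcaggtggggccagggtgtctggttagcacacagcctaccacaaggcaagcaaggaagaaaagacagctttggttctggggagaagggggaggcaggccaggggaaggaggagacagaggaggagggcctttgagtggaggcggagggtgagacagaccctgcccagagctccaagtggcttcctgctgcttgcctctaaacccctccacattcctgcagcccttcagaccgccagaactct

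Col18a1, chr20:11473395-11473644, strand +: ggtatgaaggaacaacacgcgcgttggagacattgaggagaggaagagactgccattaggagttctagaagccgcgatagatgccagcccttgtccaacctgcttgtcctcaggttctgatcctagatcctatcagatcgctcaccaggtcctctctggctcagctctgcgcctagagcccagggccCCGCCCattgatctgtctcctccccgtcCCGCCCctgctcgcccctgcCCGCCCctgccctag

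Adamts9, chr4:127019877-127020126, strand -: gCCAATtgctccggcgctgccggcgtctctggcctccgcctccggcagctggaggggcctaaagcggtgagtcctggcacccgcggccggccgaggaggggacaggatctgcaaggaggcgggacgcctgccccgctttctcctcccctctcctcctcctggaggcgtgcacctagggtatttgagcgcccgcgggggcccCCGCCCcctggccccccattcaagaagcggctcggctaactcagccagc

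Timp3, chr7:19459559-19459808, strand -: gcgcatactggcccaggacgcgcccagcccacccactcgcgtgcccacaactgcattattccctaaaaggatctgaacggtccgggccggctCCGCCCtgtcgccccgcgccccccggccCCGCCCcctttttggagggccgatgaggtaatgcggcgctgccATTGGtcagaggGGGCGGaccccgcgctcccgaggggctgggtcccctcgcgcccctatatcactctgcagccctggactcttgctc

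Of the 3 words the Postn promoter held TATAAA and the Sparc promoter none, while that of Col18a1 held the GC box and those of Adamts9 and Timp3 held both the GC box and the CCAAT box. The GC box was found in 64.7% of the 51 matrix promoters and in 32.4% of all 27457 rat promoters of full length. By direction, it was found in 5 of the 13 matched promoters of genes that fell (38.5%) and in 4 of 4 of those that rose, which are too few to compare. CCAAT was found in 1 of 13 (7.69%, that of Col1a2) and in 3 of 4 (Adamts9, Timp3 and Adamts1), against 34.3% of all promoters. TATAAA was found in 11.8% of the matrix promoters and 13.1% of all. Both strands were also searched for CAGAC, a SMAD-binding core, TGACTCA, an AP-1 site, and GTAAACA, a forkhead site, none of which overlaps the others in spelling. CAGAC was in 41.2% of the matrix promoters and 42.8% of all, TGACTCA in 3.92% and 3.98%, and GTAAACA in none of the 51 and in 3.25% of all. By direction, CAGAC was in 8 of the 13 promoters of genes that fell (61.5%) and in 0 of the 4 that rose, and TGACTCA was in 2 of the 13 (15.4%, those of Lama3 and Col6a1) and in 0 of the 4. A match describes these letters in this window and is not a binding site.

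Collagen I is the main tensile protein of the perimysium, a trimer of Col1a1 and Col1a2 chains. Col1a1 lay at 64.7, 447 and 968 CPM (lowest, median and highest) in Sed and at 59.9, 221 and 313 CPM in CC-Sed. In Ex it lay at 181, 699 and 1543 CPM and in CC-Ex at 26.6, 90.9 and 393 CPM. All 12 CC rats were under the median of their saline group, while the ranges of the groups overlapped in each training state. The average fold change was 3.11-fold lower (Log2FC -1.64, standard error 0.465, edgeR adjusted p = 0.0143). Among exercised rats Col1a1 had the lowest Log2FC of all 10851 genes, -2.18 (standard error 0.670), with an edgeR adjusted p of 0.0828 that missed the threshold. Its partner Col1a2 lay at 53.99, 296 and 593 CPM in Sed, 57.9, 131 and 241 CPM in CC-Sed, 142, 401 and 851 CPM in Ex and 19.1, 87.9 and 277 CPM in CC-Ex. As for Col1a1, every CC rat was under the median of its saline group, and Col1a2 fell on average by 1.39 on the log2 scale (standard error 0.411, edgeR adjusted p = 0.0178).

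Collagen III and V chains were lower too. Col3a1, the single chain of the thin and more compliant collagen III fibres, lay at 195, 624 and 1011 CPM in Sed, 177, 271 and 619 CPM in CC-Sed, 344, 755 and 2185 CPM in Ex and 32.5, 126 and 627 CPM in CC-Ex. The lowest CC-Ex rat thus lay far under every Ex rat, and the highest lay inside the Ex range. Its average Log2FC was -1.46 (standard error 0.426, edgeR adjusted p = 0.0166). Col5a1, a chain of the collagen V that starts fibrils and sets their width, lay at 16.4, 35.6 and 73.3 CPM in Sed, 11.0, 17.2 and 28.8 CPM in CC-Sed, 22.0, 38.4 and 137 CPM in Ex and 3.52, 11.5 and 35.6 CPM in CC-Ex, with 12 of 12 CC rats under the median of their saline group. It fell on average by 1.31 on the log2 scale (standard error 0.367, edgeR adjusted p = 0.0130). The 5 other fibrillar chains did not pass the test. Col11a1 had an average Log2FC of -0.97 (edgeR adjusted p = 0.140), Col5a2 of -0.65 (0.0735), Col11a2 of -0.22, Col5a3 of -0.20 and Col24a1 of 0.47. Summed over the 9 fibrillar genes, the median level was 1535 (Sed), 1970 (Ex), 697 (CC-Sed) and 329 CPM (CC-Ex).

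**Figure D2:**
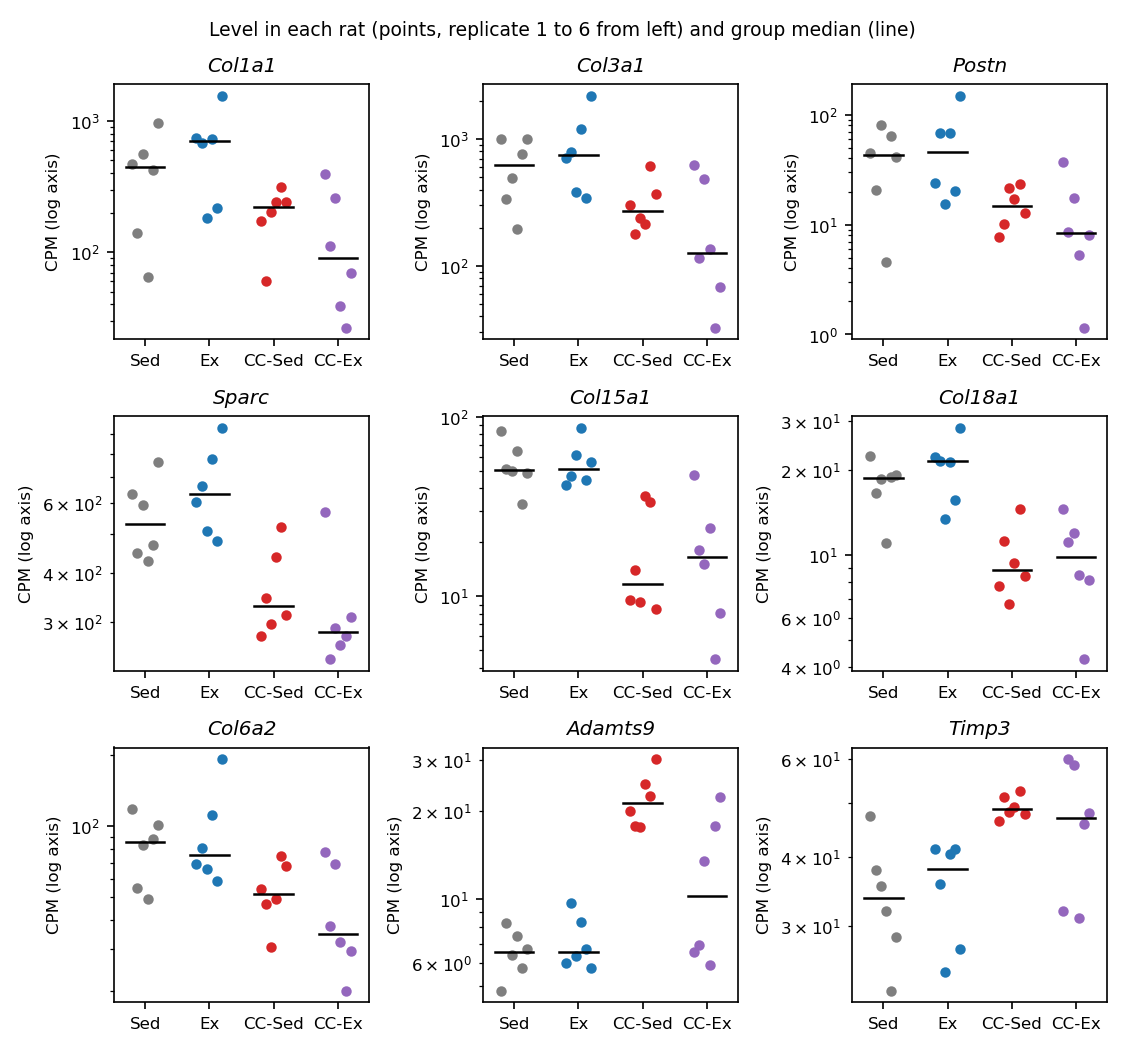
Level of 9 matrix genes in each rat (y axis, CPM on a log axis), with 1 point per rat, replicates 1 to 6 from left to right within a group, and a line at the group median. For Col1a1, Col3a1 and Postn the CC points lie lower but overlap the saline points, and for Adamts9 the 6 CC-Sed points, from 17.6 CPM upward, lie above every Sed point.

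Collagen VI forms beaded filaments next to the basement membrane, and loss of its chains is a known cause of muscular dystrophy. All 3 measured chains fell on average. Col6a1 lay at 35.6, 61.9 and 84.5 CPM in Sed, 21.2, 39.02 and 62.3 CPM in CC-Sed, 36.5, 53.7 and 129 CPM in Ex and 15.8, 26.3 and 59.6 CPM in CC-Ex. Col6a2 lay at 48.9, 85.6 and 119 CPM in Sed, 30.6, 51.6 and 74.7 CPM in CC-Sed, 58.5, 75.2 and 193 CPM in Ex and 20.0, 35.0 and 77.5 CPM in CC-Ex. For Col6a2, 11 of 12 CC rats were under the median of their saline group, and for Col6a1 10 of 12 were. The average Log2FC was -0.71 for Col6a1 (standard error 0.240, edgeR adjusted p = 0.0329) and -0.87 for Col6a2 (standard error 0.234, edgeR adjusted p = 0.0111). Col6a6, an alternative partner chain, lay at 2.79, 4.30 and 12.4 CPM in Sed, 0.605, 1.86 and 4.30 CPM in CC-Sed, 3.86, 6.06 and 9.29 CPM in Ex and 0.469, 2.03 and 7.59 CPM in CC-Ex. For Col6a6, 10 of 12 CC rats were under the median of their saline group, and its average Log2FC was -1.24 (standard error 0.368, edgeR adjusted p = 0.0182).

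Among the 10 basement membrane and network collagens, the 2 that fell were the multiplexins, while the collagen IV chains did not pass the test. Col15a1, whose protein links the basement membrane to the collagen fibres around it, lay at 32.8, 50.7 and 83.6 CPM in Sed and at 8.52, 11.8 and 36.1 CPM in CC-Sed. In Ex it lay at 41.96, 51.6 and 87.2 CPM and in CC-Ex at 4.46, 16.6 and 47.3 CPM. In each training state the lowest saline rat lay under the highest CC rat, and all 12 CC rats were under the median of their saline group. The average fold change was 2.93-fold lower (Log2FC -1.55, standard error 0.317, edgeR adjusted p = 0.00212), with nearly the same value in sedentary (-1.58, edgeR adjusted p = 0.0419) and exercised rats (-1.53, edgeR adjusted p = 0.0773). Col18a1, the precursor of the fragment endostatin, lay at 11.0, 18.8 and 22.4 CPM in Sed, 6.70, 8.87 and 14.6 CPM in CC-Sed, 13.4, 21.5 and 28.3 CPM in Ex and 4.27, 9.82 and 14.5 CPM in CC-Ex. Here too every CC rat was under the median of its saline group. Col18a1 was the only matrix gene that passed all 3 tests, with -0.97 on average (standard error 0.171, edgeR adjusted p = 0.000808), -0.88 for sedentary rats (edgeR adjusted p = 0.0367) and -1.07 for exercised rats (edgeR adjusted p = 0.0350).

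The network of collagen IV itself gave smaller values. Col4a1 lay at 141, 159.5 and 208 CPM in Sed, 87.7, 166 and 195 CPM in CC-Sed, 110.2, 165 and 197 CPM in Ex and 75.1, 110.4 and 187 CPM in CC-Ex. Col4a2, its partner in the common trimer, lay at 67.5, 77.3 and 98.2 CPM in Sed, 49.6, 84.7 and 103 CPM in CC-Sed, 56.5, 82.2 and 95.2 CPM in Ex and 40.1, 67.9 and 90.4 CPM in CC-Ex. The ranges overlapped in both training states, and the average Log2FC was -0.29 for Col4a1 (standard error 0.142, edgeR adjusted p = 0.125) and -0.15 for Col4a2 (standard error 0.126, edgeR adjusted p = 0.381). The remaining chains, Col4a3, Col4a4, Col4a5, Col7a1, Col8a1 and Col8a2, had average values between -0.53 (Col8a1) and 0.22 (Col7a1), and none passed. None of the 5 fibril-associated and transmembrane collagens passed either. Their average values ran from -0.98 for Col14a1 (edgeR adjusted p = 0.127) through Col16a1 (-0.72), Col22a1 (-0.62), which lies at the muscle-tendon junction, and Col12a1 (-0.33) to Col23a1 (0.17).

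Laminins, the trimers that muscle fibres grip through dystroglycan and integrins, were mostly without a detectable change. For Lama2, the alpha chain of the main muscle laminin, the levels were 39.3, 60.8 and 83.2 CPM in Sed, 40.9, 51.5 and 81.5 CPM in CC-Sed, 44.2, 56.8 and 64.0 CPM in Ex and 43.2, 52.4 and 58.5 CPM in CC-Ex. For Lamb2 they were 127.5, 142 and 173 CPM in Sed, 108, 153 and 175 CPM in CC-Sed, 128, 146 and 157 CPM in Ex and 115, 167 and 209 CPM in CC-Ex. For Lamc1 they were 89.2, 100.7 and 143 CPM in Sed, 78.7, 98.2 and 123 CPM in CC-Sed, 89.2, 107 and 116 CPM in Ex and 72.2, 79.9 and 114 CPM in CC-Ex. The average Log2FC was -0.10 for Lama2 (standard error 0.119), 0.09 for Lamb2 (0.0947) and -0.19 for Lamc1 (0.0918), with edgeR adjusted p-values of 0.529, 0.481 and 0.124. These standard errors were among the smallest of the matrix genes, so the intervals around these values were narrow compared with those of the fibrillar collagens. A small fall of Lamc1 is not excluded, since Lamc1 passed on average without CC-Ex replicate 1. The laminin that passed in the main fit was Lama3, an epithelial-type alpha chain with low counts (20 to 302 per library). It lay at 0.919, 2.22 and 5.34 CPM in Sed, 0.346, 0.774 and 1.26 CPM in CC-Sed, 1.15, 2.33 and 4.66 CPM in Ex and 0.665, 0.907 and 7.25 CPM in CC-Ex, where the highest value belonged to replicate 4. Its average Log2FC was -1.13 (standard error 0.419, edgeR adjusted p = 0.0476) and moved to -1.72 (edgeR adjusted p = 0.000745) without CC-Ex replicate 4. Lama4 (-0.29), Lamb1 (-0.29) and Lama5 (-0.07) did not pass. For Lama5 the group values were 20.5, 24.2 and 37.8 CPM in Sed, 21.1, 26.6 and 30.6 CPM in CC-Sed, 21.4, 25.6 and 27.5 CPM in Ex and 16.8, 21.1 and 29.2 CPM in CC-Ex, and its groups overlapped.

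**Figure D3:**
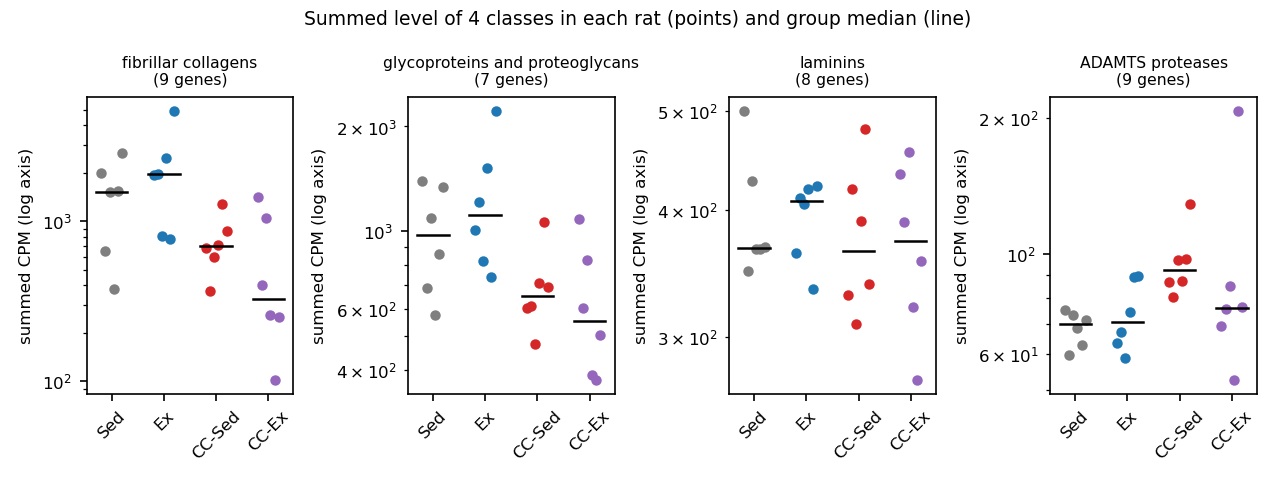
Summed level in each rat (y axis, CPM on a log axis) of the fibrillar collagens, the glycoproteins and proteoglycans, the laminins and the ADAMTS proteases, with 1 point per rat, replicates 1 to 6 from left to right, and a line at the group median. The median of the fibrillar collagens is 1535 CPM for Sed against 697 CPM for CC-Sed, and 1970 CPM for Ex against 329 CPM for CC-Ex, while the laminin groups overlap.

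Of the 7 glycoproteins and proteoglycans 3 fell, and the average values of all 7 were below 0. Postn, or periostin, a fibroblast protein that brings lysyl oxidase activation to collagen, lay at 4.59, 42.9 and 81.5 CPM in Sed, 7.71, 14.9 and 23.3 CPM in CC-Sed, 15.4, 45.8 and 148 CPM in Ex and 1.15, 8.30 and 37.2 CPM in CC-Ex. Sed replicate 4, the lowest Sed rat, lay under all CC-Sed rats, so the groups overlapped although 12 of 12 CC rats were under the median of their saline group. Postn had the lowest average Log2FC of the matrix genes, -1.81 (standard error 0.476, edgeR adjusted p = 0.00953), a 3.50-fold difference. Sparc, also called osteonectin, binds collagen and aids its assembly in the basement membrane and in fibres. It lay at 428, 532 and 764 CPM in Sed, 276, 329 and 522 CPM in CC-Sed, 479.9, 634 and 933 CPM in Ex and 241, 283 and 569 CPM in CC-Ex, where 5 rats were under every Ex rat and replicate 1 was not. Sparc fell on average (Log2FC -0.82, standard error 0.155, edgeR adjusted p = 0.00125) and among exercised rats (-1.03, standard error 0.220, edgeR adjusted p = 0.0329), and its sedentary value was -0.61 (edgeR adjusted p = 0.0825). Bgn, or biglycan, a small leucine-rich proteoglycan, lay at 16.8, 38.9 and 66.9 CPM in Sed, 14.2, 25.2 and 47.9 CPM in CC-Sed, 23.5, 42.6 and 145 CPM in Ex and 7.30, 16.5 and 37.4 CPM in CC-Ex, and 11 of 12 CC rats were under the median of their saline group. Its average Log2FC was -1.03 (standard error 0.339, edgeR adjusted p = 0.0284).

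The other 4 did not pass. Fn1, or fibronectin, on which collagen is first laid down, lay at 22.1, 115 and 199.5 CPM in Sed, 33.8, 65.6 and 123 CPM in CC-Sed, 59.02, 138 and 459 CPM in Ex and 8.89, 36.2 and 149 CPM in CC-Ex. Fbn1, the main microfibril protein, lay at 23.9, 49.4 and 139.5 CPM in Sed, 14.8, 39.1 and 44.4 CPM in CC-Sed, 33.8, 63.0 and 180.4 CPM in Ex and 11.4, 23.4 and 88.5 CPM in CC-Ex. Lum, or lumican, lay at 9.62, 22.6 and 45.4 CPM in Sed, 3.41, 15.8 and 25.5 CPM in CC-Sed, 12.5, 21.0 and 99.7 CPM in Ex and 1.15, 11.1 and 33.4 CPM in CC-Ex. Their average values were close to those of the genes that fell, -1.10 for Fn1, -0.94 for Fbn1 and -0.99 for Lum, but the spread between rats was wide and the edgeR adjusted p-values were 0.0632, 0.0560 and 0.0968. Dcn, or decorin, which coats collagen fibrils as biglycan and lumican do, lay at 68.9, 150.4 and 277 CPM in Sed, 84.5, 162 and 276 CPM in CC-Sed, 110.4, 170.1 and 254 CPM in Ex and 66.7, 169 and 242 CPM in CC-Ex. The 4 Dcn medians thus lay close together, with an average Log2FC of -0.08 (standard error 0.256, edgeR adjusted p = 0.823).

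Of the 3 lysyl oxidase-like enzymes, which form the crosslinks of collagen and elastin, Loxl1 passed the test. It lay at 1.86, 5.72 and 12.7 CPM in Sed, 1.22, 3.14 and 5.51 CPM in CC-Sed, 2.84, 5.81 and 23.6 CPM in Ex and 1.03, 2.15 and 8.53 CPM in CC-Ex, with 10 of 12 CC rats under the median of their saline group. Its average Log2FC was -1.16 (standard error 0.421, edgeR adjusted p = 0.0439). Loxl2 lay at 2.12, 4.75 and 8.88 CPM in Sed, 1.83, 3.48 and 4.50 CPM in CC-Sed, 3.35, 5.24 and 15.3 CPM in Ex and 1.63, 2.05 and 6.53 CPM in CC-Ex. For Loxl2 and Loxl3 the average values were -0.75 and -0.53, with edgeR adjusted p-values of 0.0661 and 0.103.

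Among the 6 MMPs 1 rose, 1 fell and 4 did not pass. Mmp2 and Mmp14, the gelatinase and its membrane-bound activator, did not pass. Mmp2 lay at 22.8, 48.4 and 69.1 CPM in Sed, 30.6, 36.0 and 66.3 CPM in CC-Sed, 27.1, 54.1 and 71.1 CPM in Ex and 18.9, 37.5 and 61.8 CPM in CC-Ex (average Log2FC -0.31, edgeR adjusted p = 0.275). Mmp14 lay at 4.74, 10.6 and 16.6 CPM in Sed, 4.24, 13.2 and 17.8 CPM in CC-Sed, 5.46, 9.06 and 35.2 CPM in Ex and 4.03, 8.88 and 16.3 CPM in CC-Ex (average Log2FC -0.10, edgeR adjusted p = 0.831). Both genes overlapped across all groups. Mmp11, or stromelysin-3, rose, although on low counts (11 to 186 per library). It lay at 0.367, 0.885 and 1.095 CPM in Sed, 0.307, 2.38 and 3.22 CPM in CC-Sed, 0.531, 0.724 and 1.94 CPM in Ex and 0.336, 1.84 and 3.64 CPM in CC-Ex. In each CC group 5 of 6 rats exceeded the median of their saline group and replicate 4 did not. The average Log2FC of Mmp11 was 1.28 (standard error 0.346, edgeR adjusted p = 0.0110). Mmp23, a membrane-tethered MMP, went the other way, also on low counts (11 to 156 per library). It lay at 0.288, 1.31 and 2.05 CPM in Sed, 0.415, 0.732 and 1.18 CPM in CC-Sed, 0.807, 1.80 and 3.32 CPM in Ex and 0.493, 0.832 and 1.24 CPM in CC-Ex. All 12 CC rats were under the median of their saline group for Mmp23, whose average Log2FC was -0.83 (standard error 0.301, edgeR adjusted p = 0.0443). Mmp15 and Mmp19 had average values of -0.14 and -0.32 and did not pass. In the CC groups Mmp15 spread widely, at 9.93, 41.1 and 91.9 CPM in CC-Sed and 33.9, 50.8 and 111.6 CPM in CC-Ex, against 52.1, 54.7 and 59.3 CPM in Sed and 46.6, 52.3 and 60.8 CPM in Ex.

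Of the 4 TIMPs 1 rose and 1 fell. Timp3, the TIMP that binds the matrix and also inhibits ADAMTS enzymes, lay at 22.9, 33.7 and 47.4 CPM in Sed, 46.4, 48.7 and 52.5 CPM in CC-Sed, 24.8, 38.1 and 41.4 CPM in Ex and 31.1, 46.9 and 60 CPM in CC-Ex. The 6 CC-Sed rats were tightly grouped, and only 1 Sed rat reached their range. Timp3 rose on average, with 0.46 on the log2 scale (standard error 0.125, edgeR adjusted p = 0.0115). Timp2, which inhibits and also helps to activate Mmp2, lay at 21.6, 40.9 and 57.7 CPM in Sed, 26.8, 30.6 and 45.3 CPM in CC-Sed, 31.4, 49.6 and 73.8 CPM in Ex and 16.2, 34.9 and 39.8 CPM in CC-Ex. For Timp2, 11 of 12 CC rats were under the median of their saline group, and it fell on average by 0.49 on the log2 scale (standard error 0.170, edgeR adjusted p = 0.0370). Timp1 lay at 1.49, 2.85 and 5.80 CPM in Sed, 0.941, 2.43 and 5.93 CPM in CC-Sed, 1.79, 3.07 and 13.0 CPM in Ex and 0.600, 1.45 and 5.67 CPM in CC-Ex. Timp4 lay at 7.69, 12.1 and 15.3 CPM in Sed, 7.02, 8.89 and 13.4 CPM in CC-Sed, 6.52, 12.2 and 17.1 CPM in Ex and 7.16, 9.58 and 13.5 CPM in CC-Ex. Neither passed on average (Timp1 -0.56, edgeR adjusted p = 0.303, and Timp4 -0.31, edgeR adjusted p = 0.133).

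Adamts9, a protease that cleaves the proteoglycans versican and aggrecan and acts in secretion, had the smallest adjusted p-value of the matrix genes. It lay at 4.83, 6.56 and 8.28 CPM in Sed and at 17.6, 21.2 and 30.1 CPM in CC-Sed. The highest Sed rat was thus under the lowest CC-Sed rat. Adamts9 was the only one of the 68 genes (1.47%) whose Sed and CC-Sed groups did not overlap. Over all genes, 2.32% did not overlap in the upward direction and 1.29% in the downward direction, so this count is not above the background. In Ex Adamts9 lay at 5.79, 6.56 and 9.67 CPM and in CC-Ex at 5.90, 10.2 and 22.3 CPM, where 3 rats lay above all Ex rats and 3 inside their range. Sedentary rats gave a Log2FC of 1.75, a 3.36-fold rise (standard error 0.272, edgeR adjusted p = 0.00286). The value was 0.76 among exercised rats (standard error 0.267, edgeR adjusted p = 0.117) and 1.26 on average (standard error 0.190, edgeR adjusted p = 0.000291). The difference between these effects, exercised minus sedentary, was -0.99 (standard error 0.376), with an unadjusted p of 0.0152 and an edgeR adjusted p of 1.00, so the larger value in sedentary rats was not shown to differ.

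Adamts1, which cuts versican and aggrecan and carries an anti-angiogenic activity, lay at 22.0, 26.7 and 33.1 CPM in Sed, 28.5, 38.9 and 66.3 CPM in CC-Sed, 18.4, 21.8 and 49.9 CPM in Ex and 19.1, 27.8 and 166 CPM in CC-Ex. The highest rat of both exercised groups was replicate 5. The average Log2FC of 0.84 (standard error 0.289, edgeR adjusted p = 0.0348) rested on CC-Ex replicate 5, without which it was 0.38 (edgeR adjusted p = 0.101). Adamts12 lay at 5.35, 9.13 and 10.9 CPM in Sed, 4.55, 6.78 and 8.47 CPM in CC-Sed, 7.29, 9.85 and 21.7 CPM in Ex and 3.73, 7.198 and 10.6 CPM in CC-Ex, and it fell on average by 0.53 on the log2 scale (standard error 0.187, edgeR adjusted p = 0.0385). The other 6 ADAMTS genes ranged from -0.52 for Adamts2, the procollagen N-proteinase, to 0.23 for Adamts5, and did not pass. None of the 4 ADAMTS-like genes, which lack the protease part, passed. Adamtsl4, a microfibril-binding protein, lay at 26.4, 56.9 and 121 CPM in Sed, 35.2, 88.5 and 185 CPM in CC-Sed, 45.6, 64.9 and 156 CPM in Ex and 18.9, 91.8 and 149 CPM in CC-Ex (average Log2FC 0.33, edgeR adjusted p = 0.452). Its value in Sed vs. CC-Sed was 0.64 (edgeR adjusted p = 0.366). The authors, who tested with DESeq2, list Adamtsl4 among the DEGs of their sedentary comparison. Their DEGs have a Log2FC of at least 1 in size, so both the value and the call differ from theirs. The reason was not tested.

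Considering sedentary rats alone, 3 of the 68 passed in Sed vs. CC-Sed, which is 4.41%, against 6.46% of all genes. Adamts9 rose (1.47%, against 4.3% of all genes), and Col18a1 and Col15a1 fell (2.94%, against 2.16%). DEGs were 2 of the 68 (2.94%), against 1.87% of all genes. The median Log2FC was -0.19 and 49 values (72.1%) were below 0, against 0.02 and 47.5% for all genes. This median rested on single rats, with -0.03 (40 below 0) without Sed replicate 1, -0.07 (39 below 0) without CC-Sed replicate 3, -0.29 without Sed replicate 4, -0.33 without Sed replicate 2 and -0.35 without CC-Sed replicate 5. It was -0.44 with the slow fibre score as a covariate and -0.30 over the 56 genes with a mean count of at least 100. These calls of 3 genes depended on the rats in the fit, with 1 gene called without any single one of Sed replicates 2, 3, 5 and 6 and CC-Sed replicates 1, 3 and 6, and 9 genes without CC-Ex replicate 5, a rat of neither group that enters the shared estimate of spread. DESeq2 called 8.

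For the exercised groups, Ex vs. CC-Ex, 2 of the 68 passed, both lower (Sparc and Col18a1), which is 2.94%, against 0.995% of all genes in either direction and 0.12% in the downward direction. No matrix gene rose, against 0.875% of all genes. Both were DEGs, a class that held 0.525% of all genes. The median Log2FC was -0.45 and 54 of 68 values (79.4%) were below 0, against 0.01 and 48.4% for all genes. With limma-voom the median was -0.27 (51 below 0), and without both Ex replicate 6 and CC-Ex replicate 5 it was -0.24 (49 below 0). At an unadjusted p under 0.05, 21 of the 68 genes (30.9%) were lower in CC-Ex, against 7.72% of all genes, and 4 (5.88%) were higher, against 14.8%. The count of 2 fell to 0 without any single Ex rat and without CC-Ex replicate 2, 3, 5 or 6, and it was 10 without CC-Ex replicate 1 and 5 without CC-Ex replicate 4. With DESeq2 it was 10.

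**Figure D4:**
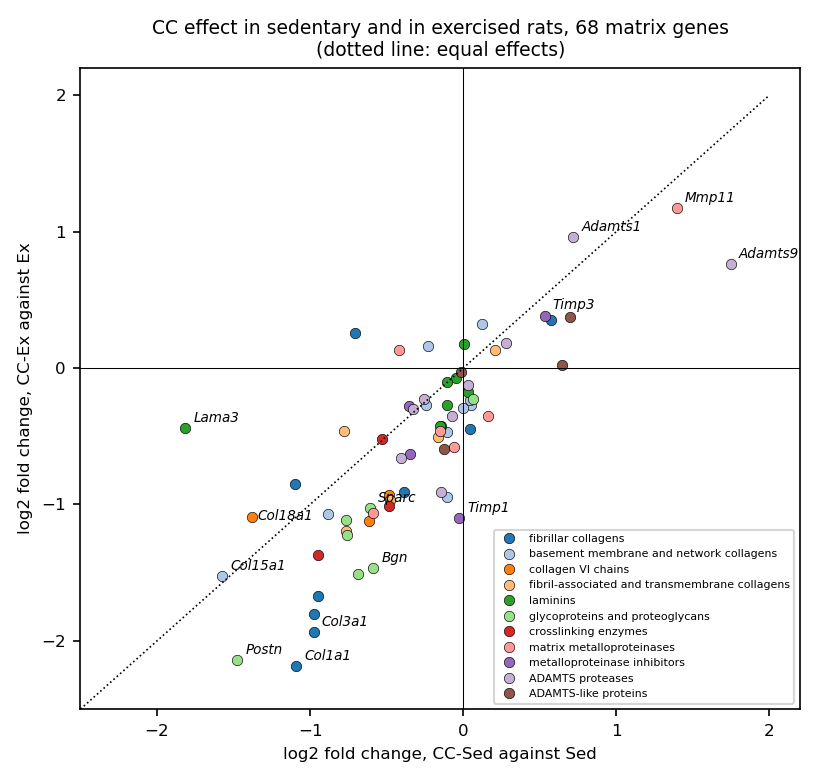
Log2FC of CC in sedentary rats (x axis) against Log2FC of CC in exercised rats (y axis) for the 68 matrix genes, coloured by role, with a dotted line at equal effects. Col1a1, Col3a1 and Postn lie under the line, with lower values in exercised rats (-2.18, -1.94 and -2.14), and Adamts9 and Lama3 lie away from it, but no gene passed the test of the difference.

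The difference between these effects was tested directly for every gene, and none of the 68 passed (0% of all genes passed), nor did any with DESeq2 or limma-voom. At an unadjusted p under 0.05 there was 1 matrix gene, Adamts9 (1.47%, against 1.42% of all genes). The interaction values of the fibrillar collagens were mostly below 0, as for Col1a1 (-1.09, unadjusted p = 0.243) and Col3a1 (-0.96, unadjusted p = 0.264), and Lama3 had the highest value (1.38, unadjusted p = 0.111).

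Training gave no call in any comparison of these genes. In Sed vs. Ex none of the 68 passed with edgeR, DESeq2 or limma-voom, as none of all genes did (0%), and at an unadjusted p under 0.05 there was none either, against 1.09% of all genes. The Log2FC was above 0 for 51 of 68 genes (75%), against 52.6% of all genes, with a median of 0.17, against 0.01. That skew rested on Ex replicate 6, without which the median was 0.0034 and 35 of 68 genes were above 0, and with the slow fibre score as a covariate it was 0.02 (38 above 0). The median was 0.32 without Sed replicate 1, 0.11 without Sed replicate 2, 0.10 without Sed replicate 4 and 0.27 without Ex replicate 5. Among higher values the smallest unadjusted p-values were those of Mmp23 (Log2FC 0.64), Adamts12 (0.38) and Adamts15 (0.34), which were 0.138, 0.159 and 0.233 in the edgeR test. Ex replicate 6 was the highest Ex rat for each of these genes. Among lower values they were those of Lama2 (-0.11), Adamts6 (-0.18) and Col11a2 (-0.36), at 0.523, 0.534 and 0.535 in the edgeR test. Col1a1 and Fn1 had 0.64 and 0.70, with unadjusted p-values of 0.334 and 0.269 in the edgeR test. In CC-Sed vs. CC-Ex the count was also 0 with each of the 3 tools (0% of all genes), and at an unadjusted p under 0.05 there was 1 gene, Adamts9 (1.47%, against 2.16% of all genes), at -0.86 (standard error 0.265, unadjusted p = 0.00344, edgeR adjusted p = 1.00). This comparison and Sed vs. CC-Sed share the CC-Sed rats. Next came Col4a1 (-0.41, unadjusted p = 0.0540) and Lama5 (-0.26, unadjusted p = 0.0881) among lower values, and Lama3 (1.23, unadjusted p = 0.0549), Mmp15 (0.49) and Lamb2 (0.17) among higher ones. The average effect of training gave 0 calls as well, with 0 genes at an unadjusted p under 0.05, against 1.75% of all genes, and with each of the 3 tools. The median of 0.06 had no firm direction, since it was -0.02 without Ex replicate 6 (28 of 68 above 0), as it was without CC-Ex replicate 1 or CC-Ex replicate 3 (32 above 0 in each case).

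The remaining genes were named because they held 1 of the 3 smallest p-values of a direction, although none of those was under 0.05. Their levels were low and overlapped between groups. Adamts15 lay at 2.65, 3.97 and 5.08 CPM in Sed, 2.81, 3.97 and 9.97 CPM in Ex, 2.29, 4.53 and 5.26 CPM in CC-Sed and 2.90, 4.81 and 5.99 CPM in CC-Ex. Adamts6 lay at 1.52, 2.11 and 4.35 CPM in Sed, 1.57, 2.09 and 2.69 CPM in Ex, 1.03, 1.92 and 3.00 CPM in CC-Sed and 0.727, 1.96 and 2.38 CPM in CC-Ex. Col11a2 lay at 1.81, 4.03 and 9.95 CPM in Sed, 3.57, 3.88 and 4.61 CPM in Ex, 1.11, 1.75 and 7.39 CPM in CC-Sed and 1.03, 3.26 and 12.2 CPM in CC-Ex. Within each comparison the groups overlapped for all 3 genes.

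Single rats were often the highest or lowest of their group across the matrix genes. In Ex, replicate 6 was the highest rat for 43 of the 68 genes (63.2%, against 20.2% of all genes), and in Sed, replicate 1 for 39 (57.4%, against 18.7%). Sed replicate 4 was the lowest rat for 36 (52.9%, against 17.4%) and CC-Sed replicate 3 for 35 (51.5%, against 16.2%). In CC-Sed, replicate 5 was the highest for 38 (55.9%, against 12.1%). In CC-Ex, replicate 1 was the highest for 34 (50%, against 16.4%) and replicate 5 the lowest for 36 (52.9%, against 35.2%). Summed over all 68 genes, Ex replicate 6 reached 8909 CPM where the median of Ex was 4322, and CC-Ex replicate 5 had 1464 CPM where the median of CC-Ex was 1959. Without Ex replicate 6, 13 matrix genes passed on average, and 13 passed when CC-Ex replicate 5 was left out with it, an alternative chosen after the data were seen. In either case all 13 were among the 21.

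Col15a1, Col18a1, Sparc, Col6a6, Adamts9 and Mmp11 passed on average whichever single rat was omitted and under each other setting in which they were tested. Col1a1, Col1a2, Col3a1, Col5a1, Col6a2, Postn and Timp3 also passed whichever rat was omitted, but lost the call with the library number as a covariate, and Col1a1, Col1a2 and Postn lost it with limma-voom as well. The other 8 calls, those of Col6a1, Bgn, Lama3, Loxl1, Mmp23, Timp2, Adamts1 and Adamts12, ended without Ex replicate 6, and all but that of Bgn ended without CC-Sed replicate 3. The library number opens each library name in the labels and runs with the groups, with medians of 15.5 (Sed), 18 (Ex), 10 (CC-Sed) and 4 (CC-Ex). In the fit with that covariate 7 matrix genes passed, 3 higher and 4 lower, and the Log2FC of Col1a1 was -1.46. The median was -0.29 for the matrix genes, against 0.02 for all genes, whose share that passed is not given here. What the library number stands for is not stated, and its part in the differences was not tested further.

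Genes of other cell types were examined beside these results, since fibroblasts make most of the fibrillar matrix. Over all genes 17.2% rose and 10.6% fell on average. Of 8 measured markers of fibroblasts and fibro-adipogenic progenitors, 5 fell on average: Clec3b (-1.34), Pi16 (-1.16), Thy1 (-1.15), Mfap5 (-1.08) and Cd34 (-0.79), with edgeR adjusted p-values from 0.00234 to 0.0375. The median of the 8 was -0.94. The defining markers Pdgfra (-0.37, edgeR adjusted p = 0.325) and Dpt (-0.33, edgeR adjusted p = 0.283) did not pass, and Gsn had a value of 0.25. Summed, the 8 markers lay at 348, 621 and 1554 CPM in Sed, 496, 907 and 1217 CPM in Ex, 588, 1017 and 1556 CPM in CC-Sed and 385, 896 and 1183 CPM in CC-Ex, so the summed median was higher for CC-Sed than for Sed. In Sed vs. CC-Sed, however, 7 of the 8 had a Log2FC below 0. Only Gsn lay above it (0.49, edgeR adjusted p = 0.369), so the sum does not show a rise of the markers as a set. The part of these cells in the fall of the collagens was not tested. The tenocyte marker Scx fell (-0.66, edgeR adjusted p = 0.0460), while Thbs4, the other measured one, had a value of -0.23.

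Among 7 endothelial markers Kdr (0.60) and Esam (0.32) rose and Tie1 (-0.34) fell, with a median of -0.01. Of 7 pericyte and smooth muscle markers, Tagln (-0.92) and Acta2 (-0.64) fell (median -0.34). None of 7 macrophage markers passed (median -0.09). Of 2 satellite cell markers Myf5 rose (0.65), and the single adipocyte marker measured, Adipoq, fell (-1.09, edgeR adjusted p = 0.0451). None of the 6 fast fibre markers passed (median -0.13). The 5 slow fibre markers had values above 0 (median 0.81) without passing, and their summed median was 2070 CPM in Sed and 6309 CPM in CC-Sed. None passed in Sed vs. CC-Sed either, with values from 1.13 to 2.01 and edgeR adjusted p-values from 0.0972 to 0.391. The authors, who tested with DESeq2, report these 5 genes as higher DEGs in their sedentary comparison. With a slow fibre score as a covariate, 34 matrix genes passed on average, 30 of them lower. In that fit the median Log2FC was -0.46 for the matrix genes and 0.01 for all genes. The share of all genes that passed in it is not given here, so the 34 are not set against a background.

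The next genes process, signal to or bind the matrix. Their counts are to be read against the 27.8% of all genes that passed on average, 17.2% higher and 10.6% lower. In collagen processing, 3 of 15 measured genes passed, a smaller share than that of all genes: Pcolce, the enhancer of procollagen C-proteinase, fell (-1.16, edgeR adjusted p = 0.0108), as did Crtap, of the prolyl 3-hydroxylase complex (-0.44), and P4hb, the disulfide isomerase subunit of prolyl 4-hydroxylase, rose (0.35). In transforming growth factor beta signalling, the main inducer of fibrillar collagen genes, 4 of 21 rose, a share near that of all genes, and 4 fell, against 10.6% of all genes. Tgfbr1 (0.42), Tgfbr3 (0.43) and the matricellular protein gene Ccn1 (0.97) were among those that rose. Tgfb3 (-0.60, edgeR adjusted p = 0.00204), Smad3 (-0.84, edgeR adjusted p = 0.00412), Ltbp3 (-0.43) and Smad2 (-0.21) fell. Tgfb1 had a value of -0.19 and did not pass.

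Of 21 matrix receptors, 1 rose and 5 fell on average, and these 6 calls are a share near the 27.8% of all genes. Sdc4, the heparan sulfate proteoglycan syndecan-4, rose on average (2.15, edgeR adjusted p = 0.000408), as it did for sedentary (2.32, edgeR adjusted p = 0.0137) and exercised rats (1.98, edgeR adjusted p = 0.0490). The authors list Sdc4 as a DEG of their sedentary comparison and not of their exercised one, so the call in exercised rats, close to the threshold, differs from theirs. The laminin receptors Itga6 (-0.44), Dag1 (-0.19) and Bcam (-0.42), the thrombospondin receptor Cd47 (-0.19) and the collagen receptor Ddr2 (-0.58) fell. Of 27 other matrix proteins, 7 fell and 1 rose, in all a share near 27.8%, while over all genes 10.6% were lower and 17.2% higher. The microfibril proteins Mfap4 (-1.56) and Mfap2 (-1.07), the basement membrane linker Nid1 (-0.48), the integrin ligand Npnt (-0.84) and Fstl1 (-0.93) were among those that fell, and Vwa1, a basement membrane-associated protein, rose (0.73, edgeR adjusted p = 0.00407). The median was -0.04 for collagen processing, -0.07 for transforming growth factor beta signalling, -0.19 for the receptors and -0.28 for the other matrix proteins, against 0.01 for all genes.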

How the data were processed

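Poly-A RNA of the left medial gastrocnemius of 24 rats was sequenced from stranded libraries. The authors trimmed the reads (Trim Galore), ran Salmon against the mRatBN7.2 transcripts, summed transcripts to genes with tximport and tested them with DESeq2 1.44.0. The deposited table holds estimated counts per gene, written as whole numbers and unscaled, with a lowest value of 10, so low genes had been removed upstream. Every gene in it thus had at least 10 counts in every rat. Genes with fewer in any rat, also any that were silent in a whole group, are not covered. Transcript-based estimates divide reads between similar collagen and laminin chains by model. No column of per-sample values was left unused.

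Groups and replicate numbers were taken from the labels, with 1 rat per library. No pair of libraries was as alike as a repeat of the same library would be (lowest chi-square per degree of freedom 28.1). Depth was 37816239 to 50350554 counts, and precision was limited by the spread between rats (median biological coefficient of variation 0.213).

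Counts were fitted in R 4.3.3 with edgeR 4.0.16 (filterByExpr, TMM, quasi-likelihood F test), using all 24 rats in a model of 4 group means, and p-values were adjusted over 10851 genes. The filter removed none. Standard errors are the size of the Log2FC divided by the square root of F. CPM used TMM library sizes. The scripts were tested on simulated data.

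The alternatives were upper-quartile scaling, DESeq2 1.42.0, limma-voom with quality weights (limma 3.58.1), no filter, a mean count of at least 100, a block for the replicate number, a covariate for the library number or for a slow fibre score, only the 12 rats compared, and each rat left out. The alternative with no filter repeats the main fit, since the filter removed no gene, and so adds no check. Leaving out Ex replicate 6 with CC-Ex replicate 5 was added after the data were seen. Same-numbered rats had residual correlations with means from -0.231 to 0.0947 between groups, which gave no sign of pairing. With 6 pairs per comparison and single values from -0.588 to 0.375, a shared factor is not excluded.

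The genes and lists were chosen with earlier results of these data known. Values by group are given for genes that passed in any comparison, for the 3 smallest p-values per direction in each simple comparison, and for defining genes of each family. Genes of other lists are named where they passed, up to 5 a list by smallest p-value. Tgfbr3, Ccn1, Smad2, Ddr2, Nid1, Gsn, Pdgfra, Dpt, Thbs4 and Tgfb1 fall outside this and were named after their values were seen. Some single-gene results are not reported here.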

Additional observations from a re-analysis of the deposited data

Results flagged for a closer look

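For the 41 genes with values by group, each group of 6 rats was checked for a highest or lowest rat far from the other 5 on the log2 CPM scale. Chance flags about 1 in 20 groups, and 9 of 164 were found. Adamts1 was far above the other rats in replicate 5 of both exercised groups, at 49.92 CPM (Ex) and 165.7 CPM (CC-Ex). Sparc in CC-Ex replicate 1, at 568.5 CPM, lay above the other 5 rats, as did Lama3 in CC-Ex replicate 4, at 7.246 CPM, and Adamts12 in Ex replicate 6, at 21.74 CPM. Col1a1 in CC-Sed replicate 2, at 59.85 CPM, and Mmp11 in CC-Sed replicate 4, at 0.3069 CPM, lay below the others. Ex replicate 1 was low for both chains of the common collagen IV trimer, at 110.2 CPM for Col4a1 and 56.48 CPM for Col4a2.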

How the results depend on the processing

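No called value of a single gene changed its sign in any alternative. Of the values that were not called, the sign changed in at least 1 alternative for 25 of 65 in Sed vs. CC-Sed, 16 of 66 in Ex vs. CC-Ex, 9 of 47 for the average effect of CC and between 40 and 45 of 68 in the comparisons of training and the interaction, so their directions are not firm. The counts of matrix genes called in the training comparisons and the interaction were 0 in every alternative and with each rat left out, for genes past the adjusted p-value and for DEGs.

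In Sed vs. CC-Sed the count of 3 was 8 with DESeq2, 6 with only the 12 rats compared, 9 without both Ex replicate 6 and CC-Ex replicate 5, and 1 to 9 with 1 rat left out. Beside the rats named in the report, it was 5 without CC-Sed replicate 4 and 6 without CC-Ex replicate 4. The 2 DEGs became 5 with DESeq2, 5 without both rats, and 1 to 5 with 1 rat left out. Adamts9 kept its call in 24 of 24 of those fits, Col18a1 in 16 and Col15a1 in 12. In Ex vs. CC-Ex the count of 2 was 1 with upper-quartile scaling, 10 with DESeq2, 4 with limma-voom, 0 with the library number as a covariate, 0 with only the 12 rats compared, 0 without both rats, and 0 to 10 with 1 rat left out. The 2 DEGs became 1, 10, 2, 0, 0, 0 and 0 to 9 in the same order, and 1 with the slow fibre score. Col18a1 and Sparc each kept the call in 14 of 24 fits. For the average effect of CC the count of 21 was 11 with limma-voom, 7 with the library number, 34 with the slow fibre score, 13 without both rats, and 13 (without Ex replicate 6) to 29 (without CC-Ex replicate 1) with 1 rat left out. The 12 DEGs became 7 with limma-voom, 6 with the library number, and 9 to 15 with 1 rat left out. The cause of these differences was not tested, apart from the fewer rats where rats are left out. The share of all genes that passed in each alternative is not given beside these counts. Such counts describe how stable the calls were and are not set against a background.

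The authors describe no pairing of rats by replicate number. With that number as a block, 2 genes (2 DEGs) were called in Sed vs. CC-Sed, 0 (0 DEGs) in Ex vs. CC-Ex and 16 (10 DEGs) on average, all 16 among the 21. The block left 0 calls in the other comparisons.

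On average, 13 of the 21 genes kept the call in every fit that left out 1 rat. Bgn lost it without Sed replicate 6 or Ex replicate 6 (highest value -0.76), and Col6a1 without Sed replicate 1, Ex replicate 6, CC-Sed replicate 3 or CC-Ex replicate 6 (highest value -0.55). Adamts12 kept it in 15 of 24 fits, Adamts1 and Timp2 in 14, Loxl1 in 11, and Lama3 and Mmp23 in 9, and each of these 6 lost it without Ex replicate 6, CC-Sed replicate 1 or CC-Sed replicate 3, among others. With limma-voom, Loxl1 was -0.68, Bgn -0.58, Mmp23 -0.35, Timp2 -0.25 and Adamts1 0.44, each smaller than the reported value by over 1.5 times. Mmp11, Mmp23 and Lama3 are among the 12 matrix genes with a mean count under 100, where counting error adds to the spread. The median over the 68 genes for the average effect of CC moved by less than 1.5 times in every alternative. For CC-Sed vs. CC-Ex, the median of -0.10 turned to 0.08 with limma-voom, 0.04 without CC-Sed replicate 5 and 0.02 without CC-Ex replicate 5, so it had no firm direction.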
